A study of Rattus norvegicus with 6 samples.

Results

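The H/ACA small nucleolar RNAs (snoRNAs) were examined in small RNA libraries of rat INS-1 lines. A gene was counted as H/ACA when its symbol was Snora followed by a digit, whatever the case of the letters. This rule used names only and found 121 of the 32883 genes listed. The study compared 3 control with 3 PWS clonal lines of INS-1, an insulin-secreting line grown from a rat β-cell tumour, with 1 library per line at 7.5 mM glucose. Control lines 5-9, 2 and 16 lacked the imprinted Prader-Willi syndrome (PWS) domain on the silent maternal allele only. PWS lines 3, 19-1 and 19-4 lacked it on the active paternal allele as well, so that the maternal deletion was common to all 6 lines. All lines carried a human insulin transgene and a mouse Ins2 C-peptide-mCherry reporter. Control lines 2 and 16 and the PWS lines were all derived from line 5-9. Lines 19-1 and 19-4 were subclones of 1 edited line, and line 3 had an alternate, larger proximal deletion, so the 3 PWS lines hold fewer independent edits than lines and the p-values measure the spread between clonal lines.

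H/ACA snoRNAs fold into a pair of hairpins, with the short H box between them and the short ACA box after the last. They guide the conversion of uridine to pseudouridine in ribosomal and spliceosomal RNA. They act in a particle with dyskerin (Dkc1), the pseudouridine synthase, and with Nop10, Nhp2 and Gar1. C/D-box snoRNAs, the other large class, guide ribose methylation. Most vertebrate snoRNAs are cut from introns of host genes, and some H/ACA hairpins are also processed into microRNA-sized fragments.

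The lines carried β-cell microRNAs and had lost the domain where the labels place the loss. Recovered depth ran from 7373691 reads in PWS line 19-4 to 16480475 in PWS line 3, and reads assigned to several overlapping genes were counted once for each. Control line 2 was the other shallow library, with 7634142 reads. The β-cell microRNAs Mir375 and Mir7a1 lay between 558022 and 1258260 normalized reads in every library, and fragments of the β-cell messages were also present, with Ins1 between 88.3 and 285 normalized reads, Iapp (amylin) between 11.8 and 56.3 and Ins2 between 0 and 30.1. Summed Snord116, the C/D family of the deleted domain, had 5557 to 8804 normalized reads in the control lines and 1.78 to 3.96 in the PWS lines. A normalized read is a read divided by the size factor of its library.

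The sequences shown are those of microRNA hairpins that carry an H/ACA symbol or whose reads coincided with those of an H/ACA gene. The hairpins of Snora58 and Mir664-2 concern the genes at the top of the ranking below. RefSeq (assembly GRCr8) gives the symbol Snora58 to a microRNA gene of 76 bases, at chr6:112811875-112811950 on the minus strand. It gives Mir664-2, whose reads coincided with those of Snora36b, at chr13:99324650-99324708 on the plus strand. In the hairpins the mature microRNAs are in capitals, and in the mature sequences the seed (bases 2 to 8) is in capitals.
Snora58 hairpin: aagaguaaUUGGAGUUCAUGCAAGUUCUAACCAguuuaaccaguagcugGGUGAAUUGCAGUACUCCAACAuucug
miR-3068-5p: uUGGAGUUcaugcaaguucuaacca
miR-3068-3p: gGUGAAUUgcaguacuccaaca
Mir664-2 hairpin: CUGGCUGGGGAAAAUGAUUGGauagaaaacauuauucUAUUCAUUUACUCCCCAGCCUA
miR-664-2-5p: cUGGCUGGggaaaaugauugg
miR-664-3p: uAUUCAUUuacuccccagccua
The 4 seeds differ from each other. A further H/ACA symbol, Snora19, belongs in RefSeq to the microRNA gene of miR-3084d, and it is shown because the class also holds a hairpin of this kind with hardly any reads (10 over the 6 libraries).
Snora19 hairpin: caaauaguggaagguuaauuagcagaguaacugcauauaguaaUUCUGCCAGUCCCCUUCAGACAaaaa
The tables give reads per gene and not per arm, so the part of each hairpin that was read is not known from them.

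About as many H/ACA genes were read as were not. At least 1 read in some library was found for 61 of the 121 genes, and 60 had none. Each library held between 54 and 57 genes with a read, and 50 genes were read in all 6. Where a gene had no read in a library, 3 reads were taken as the limit, which corresponds to 1.78 to 3.96 normalized reads and covers counting error only. The filter for testing, a mean over the 6 libraries of 5 normalized reads or more, was passed by 42 of 121 H/ACA genes (34.7%), against 137 of 199 C/D genes (68.8%). Of the C/D genes, 96 belong to the domain deleted in the PWS lines, so their mean over the 6 libraries rests on the control lines. Outside the domain, 94 of 103 C/D genes passed. The remaining 19 H/ACA genes with a read fell below the filter. The genes just inside the filter were SNORA71 (ENSRNOG00000056385), with a mean of 5.08 normalized reads, SNORA70 (ENSRNOG00000058009), with 6.69, and SNORA74 (ENSRNOG00000059564), with 6.90. Those just outside were SNORA62 (ENSRNOG00000057533), with 4.63, Snora15, with 4.27, and SNORA70 (ENSRNOG00000054339), with 4.14.

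The unread genes were mostly further copies of multi-copy families. The 121 genes fell into 29 families by symbol number, of which 28 had a read and 21 consisted of 1 gene. SNORA70, whose snoRNA guides a site in 18S ribosomal RNA, had 42 annotated copies, but only 8 had a read and 2 were tested. SNORA73, known for its part in the cleavage of the ribosomal RNA precursor, had 17 copies, of which 10 had a read and 7 were tested. SNORA71 had 3 of 10 copies with a read, SNORA63 had 4 of 9 and SNORA72 had 2 of 6. SNORA74, by contrast, was read and tested for all 5 of its copies. SNORA35 was the family without a read in any library. Reads of near-identical copies could have been split among them by the aligner, so single values within these families are less certain than family sums.

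Within a family the reads were spread unevenly. In SNORA62 the most-read copy held 88.1% of the reads, and in SNORA63 it held 89.9%. In SNORA73 the most-read copy held 28.9%, and the family sum was 364, 382 and 441 normalized reads in control lines 5-9, 2 and 16 and 438, 421 and 378 in PWS lines 3, 19-1 and 19-4. The SNORA73 sum was therefore about even across the lines, at 395.6 ± 39.9 in control and 412.4 ± 30.6 in PWS lines (SD, n = 3 each). The SNORA62 sum was 337.8 ± 58.3 and 394.1 ± 59.6, the SNORA66 sum 158.8 ± 56.6 and 194.7 ± 33.7, and the SNORA74 sum 96.1 ± 29.3 and 112.7 ± 34.6 in the same order. Lower in PWS lines were the SNORA72 sum, at 47.2 ± 4.79 in control and 33.5 ± 13.4 in PWS lines, and the SNORA71 sum, at 41.2 ± 12.2 and 32.7 ± 5.75. In each of these families the groups overlapped.

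**Figure D1:**
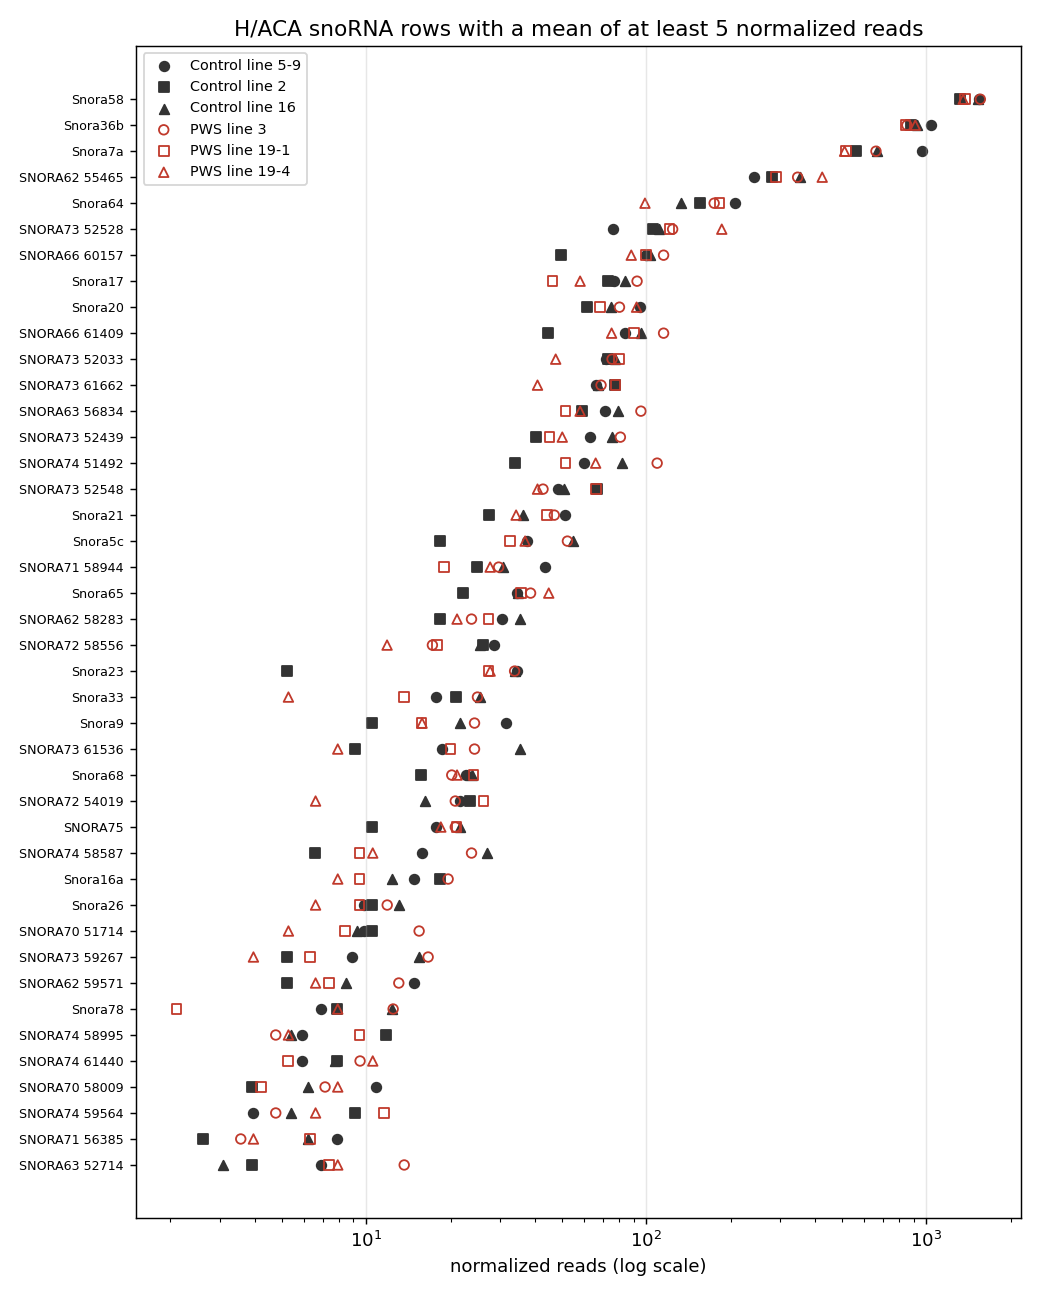
Normalized reads (log scale) of the 42 tested H/ACA genes in each of the 6 libraries, ordered by control mean, with filled black symbols for control and open red symbols for PWS lines. Where a symbol is shared by several genes, the last 5 digits of the gene identifier follow it. Snora58, Snora36b and Snora7a stand above the rest in every library, and the control and PWS symbols intermingle in nearly every gene.

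A few genes made up most of the H/ACA reads. Snora58 (ENSRNOG00000035409), named for a guide of 28S ribosomal RNA, had 1535, 1322 and 1532 normalized reads in control lines 5-9, 2 and 16, and 1557, 1374 and 1353 in PWS lines 3, 19-1 and 19-4. Snora36b (ENSRNOG00000059556), named for a guide of 18S ribosomal RNA, had 1042, 878 and 922, and then 852, 840 and 912. Snora7a (ENSRNOG00000053438), named for a guide of 28S ribosomal RNA, had 967, 560 and 668, and then 660, 517 and 510. These held the first 3 places among the H/ACA genes, in this order, in all 6 libraries, and together they held 59.4% to 66.1% of the H/ACA reads of a library. For Snora7a, control line 5-9 stood above the other 5 libraries, while for Snora58 the lines spanned a narrow range.

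Below them the levels dropped quickly. SNORA62 (ENSRNOG00000055465), whose snoRNA guides 28S ribosomal RNA, had 242, 281 and 353 normalized reads in control lines 5-9, 2 and 16, and 347, 290 and 425 in PWS lines 3, 19-1 and 19-4. Snora64, another guide of 28S ribosomal RNA, had 208, 156 and 133, and then 175, 183 and 98.9. The fifth to the tenth genes by control mean were less stable in order than the top 4, which kept their places in every library. Among them the control mean of SNORA73 (ENSRNOG00000052528) was 97.6 ± 19.0, that of SNORA66 (ENSRNOG00000060157) 84.2 ± 30.0 and that of Snora17 78.0 ± 5.55 (SD, n = 3). Snora20 followed with 76.9 ± 16.7 and SNORA66 (ENSRNOG00000061409) with 74.6 ± 26.8. The neighbouring means from SNORA66 downwards differed by less than the larger of their SDs, and the place of SNORA66 (ENSRNOG00000060157) among the H/ACA genes ranged from 6 to 13 over the libraries.

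Set among the snoRNA genes found by symbol, few H/ACA genes ranked high by reads. Over these 327 genes (121 H/ACA, 199 C/D and 7 Cajal body RNAs), 3 H/ACA genes were in the top 50 by control mean and 4 in the top 100. Genes that the study names as snoRNAs under clone names or other symbols, among them 13 H/ACA genes, were not ranked. By control mean, Snora58 ranked 26, Snora36b 38, Snora7a 45, SNORA62 77 and Snora64 102. In the single control libraries Snora58 took places between 25 and 30, and Snora7a between 40 and 49. These are ranks of reads per gene, with no correction for length, and H/ACA snoRNAs are generally longer than C/D snoRNAs. A length was found in RefSeq for 9 of the 42 tested genes under the same symbol. On that scale the control mean of Snora58 was 1925 normalized reads per 100 bases of its microRNA gene, whereas Snora64 had 124, Snora20 59.2, Snora21 28.2, Snora5c 26.9, Snora65 23.4, Snora33 16.2, Snora23 13.4 and Snora26 9.28. The gene lengths of the annotation used for counting may differ from those of RefSeq.

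The top of the ranking rested on reads that another annotated gene also received. The study counted reads with the HTSeq option all, which adds a read to every gene it overlaps, and a second table was counted with the option none, which leaves such reads out. Of the 61 H/ACA genes with a read, 9 lost reads in the second table and 52 lost none. All 9512 reads of Snora58 were shared with Gm50450, a gene that the study also names Snora58, and 98.4% of the 9664 reads of Gm50450 were among them. Of the 5851 reads of Snora36b, 5829 (99.6%) were shared with Mir664-2, which had no read of its own. The partner was identified as the gene that lost the same reads in every library. Snora7a shared none of its 4267 reads.

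The other shared reads lay in smaller genes. Snora17 shared 487 of 487 reads with AC111292.3, Snora16a 93 of 93 with AABR07050084.1 and Snora26 69 of 69 with AC114452.3. Of the SNORA74 copies, ENSRNOG00000058587 shared 113 of 113 reads with AABR07054120.1, ENSRNOG00000058995 shared 42 of 43 with AC097153.1 and ENSRNOG00000059564 shared 41 of 42 with Mir1949. The most-read SNORA74 copy, ENSRNOG00000051492, shared 165 of 476 reads (34.7%) with AC135285.4. Thus 8 of the 9 genes kept fewer than 5% of their reads in the table without shared reads, and this SNORA74 copy was the exception.

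**Figure D2:**
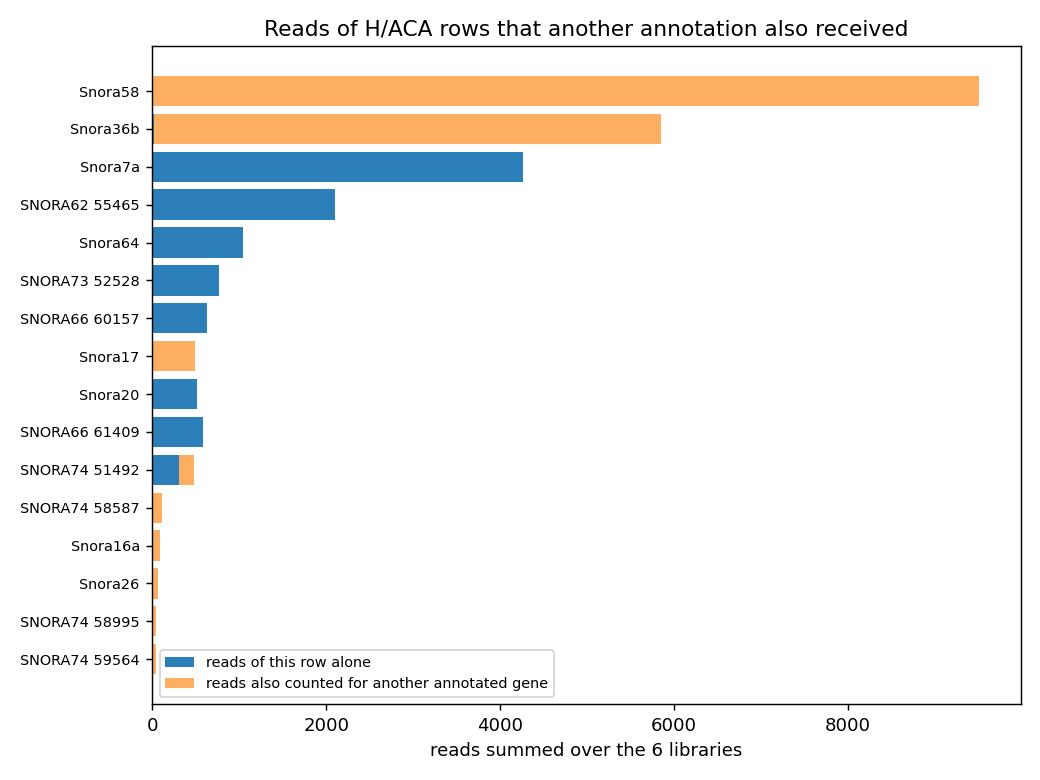
Reads summed over the 6 libraries for the 10 H/ACA genes with the highest control mean and for 6 further genes that share reads, split into reads of the gene alone (blue) and reads also counted for another annotated gene (orange). The bars of Snora58 and Snora36b are nearly all orange, with 9512 of 9512 and 5829 of 5851 reads shared, and the bar of Snora7a is all blue.

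In total the class was a small share of the libraries. Summed over the 121 genes, H/ACA reads were 5364, 4251 and 5082 normalized reads in control lines 5-9, 2 and 16, and 5170, 4470 and 4510 in PWS lines 3, 19-1 and 19-4. The groups overlapped, with means of 4899 ± 578 and 4717 ± 393 (SD, n = 3 each), and the sum was 0.0417% to 0.0528% of all reads of a library. Snora58 and Snora36b held 46.6% to 51.8% of it. Without these genes the sum was 2786, 2051 and 2627 in the control lines and 2761, 2255 and 2245 in the PWS lines. Control line 2 had the lowest sum either way.

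The first comparison asked whether H/ACA snoRNAs differed between genotypes, as the C/D genes of the deleted domain did. None of the 42 tested genes passed an adjusted p of 0.1 (limma-trend on log2(normalized reads + 1), Benjamini-Hochberg over 4292 genes, lowest adjusted p among H/ACA genes 0.831). Over all genes tested, 55 of 4292 were called, or 1.28%. At an unadjusted p under 0.05 there was 1 H/ACA gene by limma, against 5.96% of all tested genes, and edgeR and DESeq2 on the recovered reads gave 0 by either measure. The log2 fold changes (PWS minus control) ran from -0.75 to 0.93, with standard errors of 0.23 to 0.60. With 3 lines a group the data cannot tell a small change from none. In these bulk libraries, fewer cells with an RNA and less of it per cell cannot be told apart.

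The direction of the fitted changes was more often down than up. Of the 42 tested genes, 27 (64.3%) had a log2 fold change below 0 and 15 above, whereas 49.7% of all tested genes were below 0. The median log2 fold change was -0.08 for the H/ACA genes and 0.0048 for all genes, and no test was made of this lean. For C/D genes outside the deleted domain, 0 of 94 tested were called and the median log2 fold change was 0.02. Genes of 1 family share sequence, so these counts are not counts of independent measurements.

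The gene with the lowest p was SNORA72 (ENSRNOG00000058556). It had 28.6, 26.2 and 25.5 normalized reads in control lines 5-9, 2 and 16, and 17.2, 17.9 and 11.9 in PWS lines 3, 19-1 and 19-4. Every PWS line lay below every control line, by a log2 fold change of -0.75 ± 0.35 (SE, limma, adjusted p = 0.831). It was the only tested H/ACA gene of which this was true, against 6.29% of all tested genes. The other tested SNORA72 copy (ENSRNOG00000054019) overlapped between groups, with 20.5 ± 3.81 in control and 17.9 ± 10.2 in PWS lines (SD, n = 3 each). The SNORA72 family sum overlapped as well, with a log2 fold change of -0.56 ± 0.36 (SE, limma).

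In the opposite direction, 3 tested H/ACA genes had every PWS line above every control line, against 4.87% of all tested genes. SNORA63 (ENSRNOG00000052714) had 6.89, 3.92 and 3.09 normalized reads in control lines 5-9, 2 and 16, and 13.7, 7.35 and 7.91 in PWS lines 3, 19-1 and 19-4, a log2 fold change of 0.93 ± 0.48 (SE, limma, adjusted p = 0.837). This change was 0.60 with a pseudocount of 5 and ranged from 0.67 to 1.20 with a line left out. The control mean of 4.63 lay under the filter, so the gene was tested only through its PWS values. The other tested SNORA63 copy (ENSRNOG00000056834), which held 89.9% of the family's reads, had a log2 fold change of -0.07 ± 0.33 (SE, limma). The SNORA63 family sum was 75.0 ± 10.7 in control and 78.2 ± 27.7 in PWS lines (SD, n = 3 each). SNORA73 (ENSRNOG00000052528) had 75.8, 106 and 111, and then 124, 121 and 186, a log2 fold change of 0.54 ± 0.30 (SE, limma, adjusted p = 0.860) that was 0.34 without PWS line 19-4. The other 6 tested SNORA73 copies had fitted log2 fold changes between -0.22 and -0.03, and the family sum was about even. Snora65, a guide of 28S ribosomal RNA, had 34.5, 22.2 and 34.7, and then 38.6, 35.7 and 44.8, a log2 fold change of 0.39 ± 0.33 (SE, limma, adjusted p = 0.887).

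The 2 most-read genes had fitted changes near 0. Snora58 had a log2 fold change of -0.03 ± 0.23 and Snora36b of -0.12 ± 0.23 (SE, limma). With a line left out, the change of Snora36b ranged from -0.18 (without control line 2) to -0.053 (without control line 5-9). Snora7a had -0.35 ± 0.27, with a control mean of 731.6 ± 211.1 and a PWS mean of 562.5 ± 84.9 (SD, n = 3 each), and without control line 5-9 the change was -0.13. SNORA62 (ENSRNOG00000055465) had 0.27 ± 0.27, which ranged from 0.13 to 0.42 with a line left out, and Snora64 had -0.15 ± 0.32. The tested SNORA66 genes, named for a guide of 18S ribosomal RNA, had 0.33 ± 0.33 (ENSRNOG00000060157) and 0.37 ± 0.34 (ENSRNOG00000061409), and without control line 2 these were -0.013 and 0.042. Snora17 had -0.30 ± 0.33, which was -0.086 without PWS line 19-1 and -0.58 without PWS line 3. Snora20 had 0.07 ± 0.31. Among the genes with fewer reads, Snora33 had -0.73 ± 0.46 (adjusted p = 0.860), from 17.7, 20.9 and 25.5 normalized reads in control lines 5-9, 2 and 16 and 24.9, 13.7 and 5.27 in PWS lines 3, 19-1 and 19-4. The groups overlapped for Snora33, and line 19-4 alone lay far below the rest, with a value that rests on 4 reads. The change was -0.18 without line 19-4 and -1.21 without PWS line 3.

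**Figure D3:**
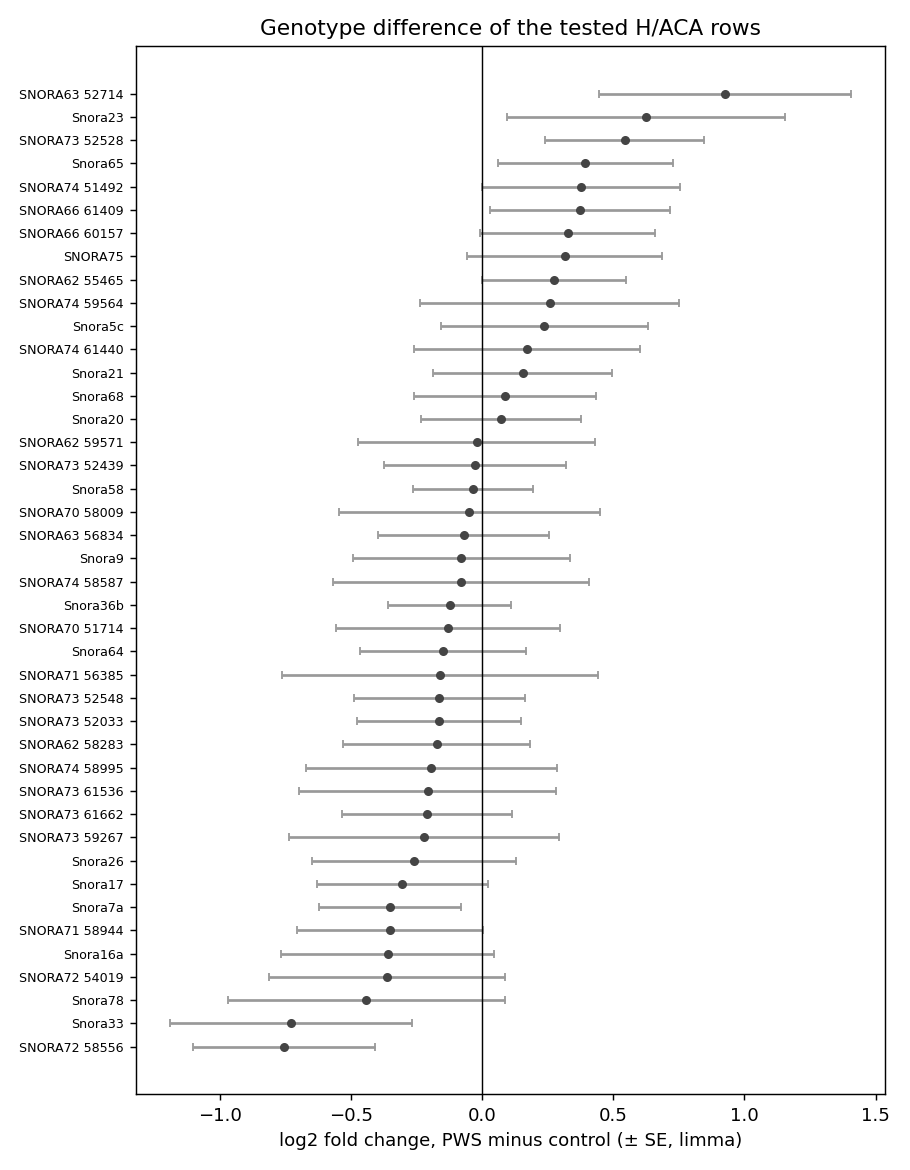
Log2 fold change (PWS minus control) of the 42 tested H/ACA genes, with bars of 1 standard error from limma, ordered by value. Where a symbol is shared by several genes, the last 5 digits of the gene identifier follow it. Values run from -0.75 for a SNORA72 gene to 0.93 for a SNORA63 gene, and none passed an adjusted p of 0.1.

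The spread among lines of 1 genotype was as large as in other genes. For the 24 H/ACA genes whose mean reached 20 normalized reads, the median SD within groups was 0.35 on the log2 scale (0.10 to 1.03), and it was also 0.35 over all genes of that level. Of these 24 genes, 21 had a log2 fold change of less than 0.5 in size. The widest spread was that of Snora23, with 34.5, 5.23 and 34.0 normalized reads in control lines 5-9, 2 and 16, and 33.9, 27.3 and 27.7 in PWS lines 3, 19-1 and 19-4. Control line 2 thus had a fraction of the Snora23 level of every other line, but its value rests on 4 reads.

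Low values gathered in the same libraries. Control line 2 was the lowest of the 6 libraries in 18 of 42 tested H/ACA genes (42.9%), whereas it was the lowest in 22.2% of all tested genes. PWS line 19-4 was the lowest in 13 (31.0%, against 20.6%). Control line 5-9 and PWS line 3 were each the highest in 12 (28.6%), against 18.5% and 10.97% of all tested genes. Control line 2 and PWS line 19-4 were the shallowest libraries, as given above, and one is in each group. The part of depth in these counts was not tested.

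The second comparison was that with the C/D class. For every 100 reads of C/D genes there were 3.01, 2.23 and 2.65 H/ACA reads in control lines 5-9, 2 and 16, and 2.96, 2.82 and 2.04 in PWS lines 3, 19-1 and 19-4. The means were 2.63 ± 0.393 in control and 2.61 ± 0.495 in PWS lines (SD, n = 3 each), a difference of -0.0209 that is small beside the pooled SD of 0.447. No test was made of this ratio. The ratio was lowest in control line 2 and PWS line 19-4, the shallow libraries, so that each group spanned most of the range of the other. C/D reads summed to 158679 to 220894 normalized reads, with the highest sum in line 19-4.

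The ratio depended on what was counted more than on genotype. With the C/D genes of the PWS domain left out (96 of 199), it was 2.75 ± 0.441 in control and 2.61 ± 0.495 in PWS lines. Without shared reads it was 1.32 ± 0.249 and 1.34 ± 0.279. Without Snora58 and Snora36b, a choice made after the shared reads had been seen, it was 1.34 ± 0.247 and 1.34 ± 0.292, so that these genes account for about as much of the ratio as all shared reads do. The study names 18 H/ACA genes by identifier, of which 13 carry clone names or other symbols that the rule on symbols does not find. With those added, and the C/D genes that the study names likewise, the ratio was 3.72 ± 0.632 and 3.51 ± 0.618, with the reads of Snora58 then counted again under Gm50450. The clone-named genes mean that 121 is an undercount of the class.

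**Figure D4:**
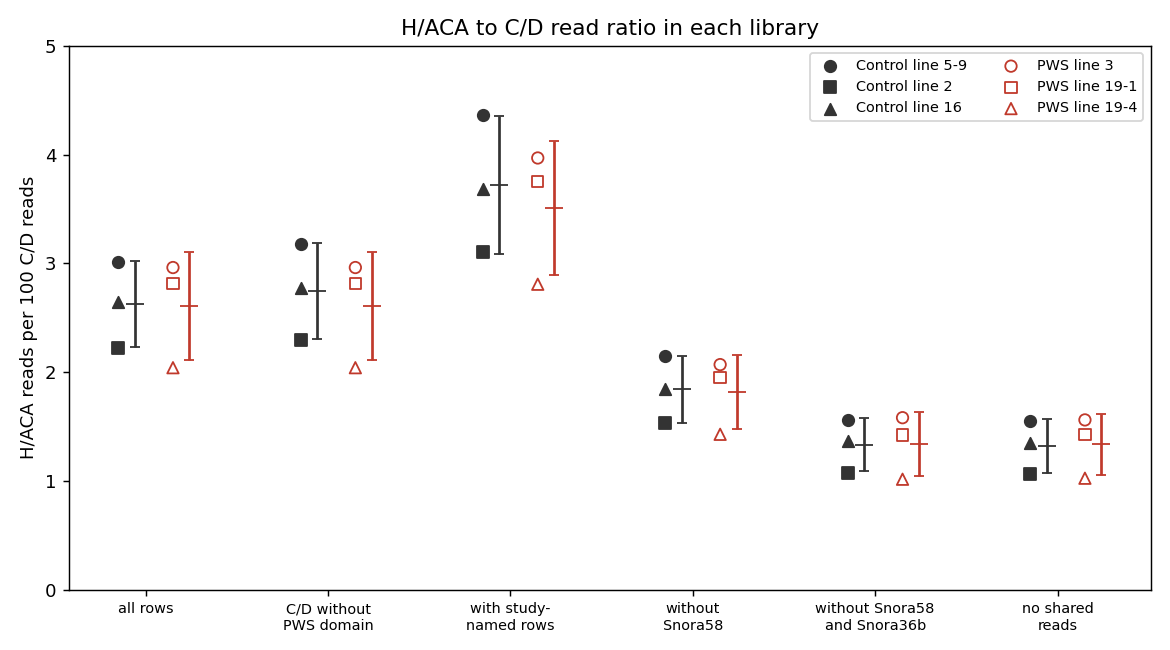
H/ACA reads per 100 C/D reads in each library (symbols), with the mean and SD of each group beside them (n = 3 each), for 6 sets of genes. The level falls from 2.63 to 1.34 in control lines when Snora58 and Snora36b are left out, and control line 2 and PWS line 19-4 are the lowest of their groups in every set.

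Host genes of H/ACA snoRNAs were read sparsely. By RefSeq coordinates, with strand not compared, the gene of the same symbol lay within a protein-coding gene for 8 of the tested H/ACA genes. Snora64 lay in Rps2 and Snora65 in Rpl12, both of which encode ribosomal proteins, Snora23 in Ipo7 and Snora5c in Tbrg4. Snora21 lay in Tardbp, Snora20 in Rnf111, Snora26 in Mms22l and Snora58 in Alkbh1. Fragments of Rps2 amounted to 15.1 ± 6.64 normalized reads in control and 11.3 ± 4.05 in PWS lines, beside 165.6 ± 38.2 and 152.1 ± 46.3 for Snora64 (SD, n = 3 each). Ipo7 had 19.2 ± 3.32 and 16.9 ± 6.89. None of the 5 host genes that passed the filter was called. These libraries were selected for small RNA, so host fragments are no measure of host transcription.

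The genes that act with H/ACA snoRNAs were also read sparsely, and none of those tested was called. Of the 4 core proteins of the H/ACA particle, Nop10 and Gar1 were tested, with log2 fold changes of -0.14 ± 0.42 and 0.57 ± 0.57 (SE, limma), and Dkc1 was read at 0 to 2.95 normalized reads. Of 4 assembly factors, Nolc1, a chaperone of snoRNPs in Cajal bodies and nucleoli, was tested at 0.59 ± 0.39. Of the 4 core proteins of the C/D particle, Nop56 and Nop58 were tested, at 0.15 ± 0.40 and 0.44 ± 0.44. Of 12 pseudouridine synthases that act without a guide, Rpusd1 and Rpusd3 were tested, at 0.17 ± 0.52 and 0.27 ± 0.45. Terc, the telomerase RNA, which ends in an H/ACA domain, had 8.86, 7.84 and 4.63 normalized reads in control lines 5-9, 2 and 16, and 13.1, 7.35 and 10.5 in PWS lines 3, 19-1 and 19-4, a log2 fold change of 0.49 ± 0.42 (SE, limma, adjusted p = 0.887). The Terc values overlapped between groups.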

How the data were processed

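Small RNA libraries of 6 INS-1 lines (3 control, 3 PWS) were made by the authors with a microRNA kit widened to longer fragments. Per the labels and methods, reads were processed with UMI-tools 1.0.0, Cutadapt 1.18, Bowtie2 2.3.4.2 and HTSeq 0.11.2 on Rnor_6.0 with a custom annotation. featureCounts and DESeq2 are also listed. The deposited signal is gene counts divided by the authors' DESeq2 size factor of each library, in 2 tables (options all and none). All values above 0 (100%) were whole multiples of 1 read within 0.001, which gave back the reads. The deposited columns of the authors' mean signal, log2 fold changes and p-values were not used. Genotypes were compared by the trended test of limma 3.58.1 (R 4.3.3), called limma-trend, on the log2(normalized reads + 1) values of genes whose mean reached 5, with genotype as the sole term, Benjamini-Hochberg adjustment and a threshold of 0.1. This scale understates changes of genes with few reads. edgeR 4.0.16 and DESeq2 1.42.0 were run on the recovered reads, and the scripts were tested on simulated data. Ratios and ranks carry no test.

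Genes named are the largest families, the 10 genes with the highest control mean, the 5 with the lowest p, those next to the filter, those that share most reads, and fixed lists of partner proteins. Genes whose groups do not overlap were added by that property after their values were seen. So were Snora23, the second SNORA72 copy, the most-read SNORA63 copy and the family sums of SNORA63, SNORA71 and SNORA72. The members and lists were chosen with earlier results of these data known. Lengths, hosts and sequences come from RefSeq tables of GRCr8, matched by symbol, and no snoRNA sequence was used here. Of 121 genes, 21 matched a RefSeq symbol and 12 had a length.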

Additional observations from a re-analysis of the deposited data

How the results depend on the processing

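The count of called H/ACA genes was 0 under all 19 alternatives, with 24 to 61 genes tested and a lowest adjusted p between 0.424 and 0.999. These were pseudocounts of 0.5 and 5, means of at least 1 or 20 or no filter beyond 1 read, TMM scaling, edgeR, DESeq2, the table without shared reads, lines 19-1 and 19-4 averaged, family sums, the replicate number as a block, a stricter threshold (0.05) and each line left out. At most 1 H/ACA gene had an unadjusted p under 0.05 in any of them. Over all genes these alternatives called 41 to 66, with 51 at the stricter threshold. With the replicate block the H/ACA count was 0 and 56 genes were called in all. Same-numbered libraries deviated from their group means with correlations of 0.414, 0.218 and -0.0574 over 1087 genes. Differently numbered libraries were not compared in this way, so these values cannot show whether the replicate numbers pair the lines.

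The difference in the H/ACA to C/D ratio stayed under the pooled SD throughout, between -0.222 and 0.262 with a line left out. Its sign was not stable: it was -0.0209 over all lines, 0.0172 without shared reads, -0.142 without the domain, -0.209 with the genes named by the study, -0.0271 without Snora58 and 0.00446 without Snora58 and Snora36b. Of 13 named genes, 9 kept their direction under every alternative that tested them. The other 4 turned only when a line was left out, with log2 fold changes from -0.11 to 0.0031 for Snora58, -0.31 to 0.13 for Snora64, -0.013 to 0.51 for SNORA66 (ENSRNOG00000060157) and -0.078 to 0.23 for Snora20. In the shallow lines 2 and 19-4, 3 reads amount to 3.92 and 3.96 normalized reads, so values near the filter of 5 rest on few reads there.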
